A study of Arabidopsis thaliana with 4 samples.

Results

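Transcripts encoded by the genomes of the plastid and the mitochondrion were examined in inflorescence tips of Arabidopsis thaliana, measured on the Affymetrix ATH1 array. The members were all probe sets, each a group of short probes for a transcript, that the array's annotation gave to 1 gene of either organelle genome. They numbered 92 of the 22810 probe sets of the array, 69 for 69 plastid genes and 23 for 16 mitochondrial genes. A further 8 probe sets with a plastid gene and 12 with a mitochondrial gene stood for several genes and were left out. The arrays compared tmm-1, a mutant allele of the stomatal patterning gene TMM, with Col-3 gl1, a line carrying the gl1 mutation of a gene needed for leaf hairs. There were 2 arrays per line, each from a pool of tips, and the pool number served as the replicate number. Per the labels, both lines grew in a chamber at 22 °C and 70% humidity, with a 16 h day and a light level of 125 µmol m-2 s-1, and tips were harvested at growth stage 6.10. Whether gl1 is also present in the tmm-1 line is not stated. Nor do the labels tell if the pools were grown separately. The p-values rest on the spread between these pools, mostly as pooled over all probe sets, and that spread may be technical. The sample titles write the control as Col1g11.

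Plastids and mitochondria keep small genomes of their own, left from their bacterial ancestors. The plastid genome encodes core subunits of the photosynthetic complexes, the NDH complex, a bacterial-type RNA polymerase and part of the ribosome, and most of its genes are read in clusters as long shared transcripts that are later cut, spliced and edited. The mitochondrial genome encodes subunits of the respiratory chain and of cytochrome c maturation. The other subunits of these complexes are nuclear. In both organelles a poly(A) tail marks RNA for decay rather than stabilising it. The one-cycle labelling named in the labels starts from an oligo-dT primer, so it may copy organelle transcripts unevenly, and a signal here is not a measure of total organelle RNA.

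Values are MAS5 signals in array units on a linear scale. The median over all probe sets was 41.4 and 45.5 in tmm-1, against 40.8 and 40.7 in Col-3 gl1, with replicate 1 first here and in every pair of signals that follows. The dim end of tmm-1 replicate 2 stood apart: its 10th percentile was a signal of 3.06, where it was 1.54 to 1.60 elsewhere. No probe set used here stood for TMM or GL1, so the line labels are not checked. For the tissue label, 2 of 20 inflorescence marker genes had a named probe set, the shoot meristem peptide CLV3 and the floral regulator UFO. Their highest signal was 4.35, under the highest signal of any Bacillus control probe set, 21.2, which served as a yardstick for background. Neither gene passed it, so the tissue label is not checked either.

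Limma, a linear model test that pools the spread over all probe sets, called no organelle transcript different between tmm-1 and Col-3 gl1. All 69 plastid members and 17 of the 23 mitochondrial ones had a mean signal of at least 10 and were tested, with p-values adjusted over 16960 probe sets. Limma called 0 of the 69 and 0 of the 17 at an adjusted p below 0.05, where 0.613% of all tested probe sets were called. At an unadjusted p below 0.05 it passed 2 plastid and 1 mitochondrial member, namely atpI, ycf3 and nad9, where 8.81% of all tested probe sets passed. The median log2 change (tmm-1 minus Col-3 gl1, on log2 of signal plus 10) was 0.03 for plastid and 0.07 for mitochondrial members, beside 0.03 for all tested probe sets. It was positive in 56.5% of plastid and 52.9% of mitochondrial members, and in 55.0% of all tested. For all tested with a mean signal below 100, the median was 0.07 and 60.2% were positive. The 8 such plastid members had a median of 0.20, with 6 positive. nad9, atpI and psbN, described below, are in this dimmer class. For all tested of at least 100 the median was -0.01.

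A missed threshold does not show equality, so intervals bound the differences. The 95% interval of the log2 change lay between -1 and 1 for all 69 plastid members and for 13 of 17 mitochondrial ones. It lay within a 1.5-fold difference either way for 53 plastid and 4 mitochondrial members. Signals of the lines did not overlap in 17 plastid members, 8 higher and 9 lower in tmm-1, and in 4 of 17 mitochondrial members, 2 higher and 2 lower. That is 24.6% and 23.5%, where 38.3% of all tested probe sets did not overlap. The plot of line differences sets every tested member beside its group.

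**Figure D1:**
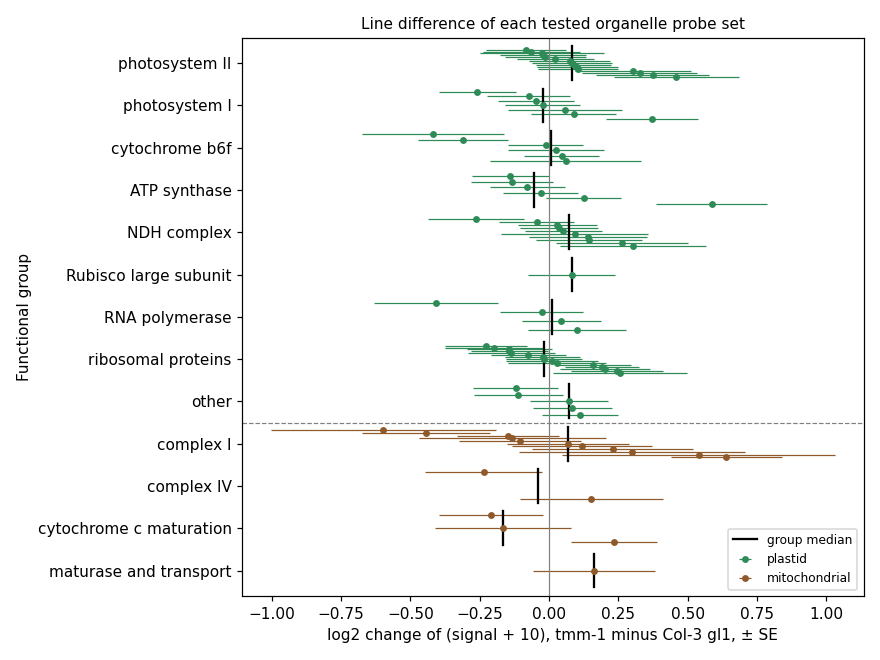
Line difference of each tested organelle probe set (points, log2 change of signal plus 10, tmm-1 minus Col-3 gl1, with the SE as bars), by functional group, with black lines at group medians. Plastid changes ran from -0.42 to 0.59 and mitochondrial ones from -0.60 to 0.64, with group medians near 0 and wider bars for the mitochondrial members.

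Photosystem II splits water and starts photosynthetic electron transport. Of its 15 plastid members 10 had a positive and 5 a negative log2 change, with a median of 0.08 and a range of -0.08 to 0.46, and 0 were called. The gene psbN, whose product acts in photosystem II assembly, had signals of 48.2 and 71.1 in tmm-1, against 35.5 and 44.9 in Col-3 gl1. Both tmm-1 arrays were higher than both control arrays, by a log2 of 0.46 ± 0.23 (SE, limma adjusted p = 0.571). Its neighbours psbB, for the antenna protein CP47, and psbT, for a small subunit, were higher on the replicate 2 array of both lines. psbB had 245 and 441 in tmm-1, against 205 and 308 in Col-3 gl1, a log2 change of 0.37 ± 0.20 (limma adjusted p = 0.639). psbT had 233 and 375 in tmm-1, against 178 and 315 in Col-3 gl1, a log2 change of 0.30 ± 0.21 (limma adjusted p = 0.738). In both genes the lines overlapped. Both depended on an array. Without tmm-1 replicate 1 limma called psbB at 0.79 ± 0.19 (adjusted p = 0.0047) and psbT at 0.64 ± 0.20 (adjusted p = 0.037). With that array left out, limma called 6 of the 69 plastid members and 3.88% of all tested probe sets. It called 1 plastid member and 1.00% of all without tmm-1 replicate 2, 1 and 0.795% without Col-3 gl1 replicate 2, and 0 and 0.452% without Col-3 gl1 replicate 1.

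The reaction centre gene psbA, for the D1 protein that is replaced after light damage, spread most between the control arrays. It had 215 and 265 in tmm-1, against 161 and 366 in Col-3 gl1, so that both mutant values lay inside the control range (-0.03 ± 0.22, limma adjusted p = 0.991). Leaving out an array in turn moved its log2 change over a range of -0.59 to 0.54. The small subunit gene psbM had 4608 and 5921 in tmm-1, against 2870 and 6039 in Col-3 gl1, with the lone low value on control replicate 1 (0.33 ± 0.21, limma adjusted p = 0.706). Limma called psbM without Col-3 gl1 replicate 2, at 0.86 ± 0.18 (adjusted p = 0.0011), and without tmm-1 replicate 1, at 0.51 ± 0.16 (adjusted p = 0.039), while its sign turned to -0.21 without Col-3 gl1 replicate 1. psbH, for a phosphorylated subunit, had the lowest log2 change of the group. Its signals were 1565 and 1473 in tmm-1, against 1835 and 1411 in Col-3 gl1 (-0.08 ± 0.15).

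The cluster psbE, psbF, psbL and psbJ encodes cytochrome b559 and small subunits around it. Signals of psbE were 578 and 567 in tmm-1, against 524 and 638 in Col-3 gl1. Those of psbF were 1180 and 972 in tmm-1, against 935 and 1106 in Col-3 gl1. All 4 genes overlapped between the lines, with log2 changes from -0.02 to 0.07.

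**Figure D2:**
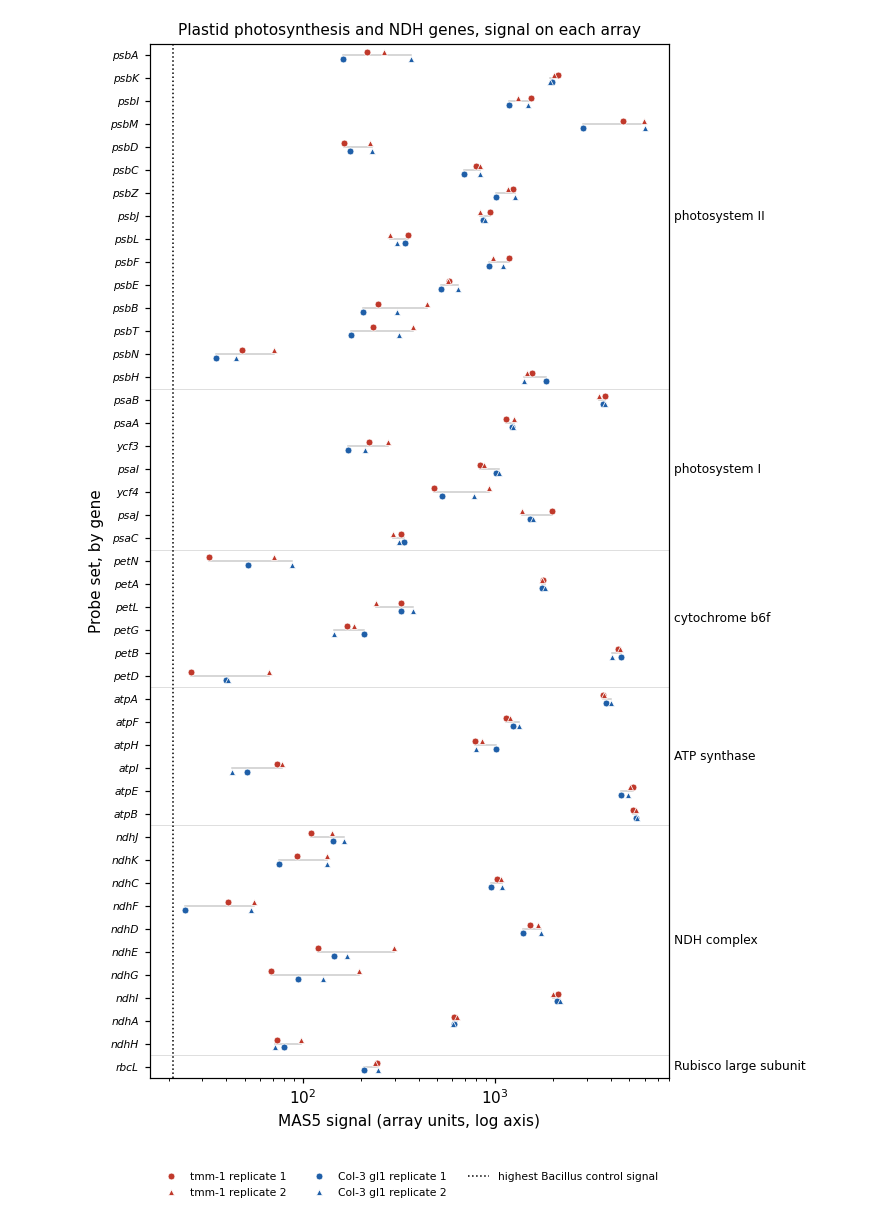
MAS5 signal of the plastid photosynthesis and NDH probe sets on each array (log axis), with tmm-1 drawn above Col-3 gl1 in each row, circles for replicate 1 and triangles for replicate 2. All signals lie right of the dotted line, the highest Bacillus control signal of 21.2. On this axis the replicates lie widest apart in ndhG and petD within tmm-1 and in psbA and ndhF within Col-3 gl1.

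Photosystem I passes electrons on to ferredoxin. Of 7 members, which include the assembly factor genes ycf3 and ycf4, 3 had a positive and 4 a negative log2 change, with a median of -0.02, and 0 were called. ycf3 had 222 and 278 in tmm-1, against 171 and 211 in Col-3 gl1, with no overlap and a log2 change of 0.37 ± 0.17 (limma unadjusted p = 0.0346, adjusted p = 0.519). psaI, for a small membrane subunit, went the other way. It had 834 and 880 in tmm-1, against 1009 and 1045 in Col-3 gl1, also with no overlap (-0.26 ± 0.14, limma adjusted p = 0.63). The large reaction centre subunit gene psaB had 3739 and 3486 in tmm-1, against 3621 and 3717 in Col-3 gl1. Its log2 change was -0.02 ± 0.14, with a 95% interval of -0.30 to 0.25. The other large subunit gene, psaA, had 1136 and 1253 in tmm-1, against 1230 and 1236 in Col-3 gl1. For both large subunit genes the lines overlapped.

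The cytochrome b6f complex links the photosystems. Its 6 members had a median log2 change of 0.01, with 3 positive and 3 negative, and 0 were called. The lowest was petN, for a small subunit, with 32.3 and 70.5 in tmm-1, against 52.0 and 88.3 in Col-3 gl1 (-0.42 ± 0.26, limma adjusted p = 0.685). The lines overlapped, and in each line replicate 2 was the higher array. Limma called petN without tmm-1 replicate 2, at -0.88 ± 0.23 (adjusted p = 0.023), but with tmm-1 replicate 1 removed instead the change was 0.05. petL, for a further small subunit, had 323 and 242 in tmm-1, against 324 and 376 in Col-3 gl1 (-0.31 ± 0.16, limma adjusted p = 0.609). Both tmm-1 signals were lower than both control signals, although the replicate 1 signals were nearly equal. petB, which encodes cytochrome b6, had 4352 and 4457 in tmm-1, against 4514 and 4034 in Col-3 gl1 (0.05 ± 0.14). petD, for subunit IV, had 26.1 and 66.5 in tmm-1, which lay on either side of 40.0 and 40.7 in Col-3 gl1.

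The ATP synthase of the thylakoid makes ATP from the proton gradient. In 5 of its 6 members the lines did not overlap, 2 higher and 3 lower in tmm-1, beside the 38.3% of all tested probe sets, and 0 were called. The largest difference was in atpI, for a membrane subunit of the proton channel, with 73.2 and 78.0 in tmm-1, against 51.5 and 42.8 in Col-3 gl1. That was a log2 change of 0.59 ± 0.20, with a 95% interval of 0.17 to 1.00 (limma unadjusted p = 0.00704, adjusted p = 0.284). It remained between 0.48 and 0.70 when any array was left out. The other ATP synthase genes of its cluster, atpH, atpF and atpA, had negative changes. atpF, for a stalk subunit, had 1134 and 1203 in tmm-1, against 1244 and 1332 in Col-3 gl1 (-0.14 ± 0.14, limma adjusted p = 0.844). The catalytic subunit gene atpB had 5249 and 5394 in tmm-1, against 5426 and 5441 in Col-3 gl1, a difference in log2 of -0.03 ± 0.13. atpE, which overlaps the end of atpB and encodes a regulatory subunit, had 5235 and 5032 in tmm-1, against 4510 and 4913 in Col-3 gl1 (0.12 ± 0.14, limma adjusted p = 0.861).

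The NDH complex returns electrons from ferredoxin to the plastoquinone pool around photosystem I. Of its 10 members 8 had a positive and 2 a negative log2 change, with a median of 0.07, and 0 were called. A positive change was found in 55.0% of all tested probe sets. ndhJ had 111 and 142 in tmm-1, against 143 and 163 in Col-3 gl1, without overlap (-0.26 ± 0.17, limma adjusted p = 0.721). ndhF had the highest change, 0.30 ± 0.26, from 40.7 and 55.9 in tmm-1, against 24.5 and 53.8 in Col-3 gl1, which overlapped. ndhI varied little, with 2124 and 2010 in tmm-1, against 2095 and 2169 in Col-3 gl1 (-0.05 ± 0.14). On log2 of signal plus 10, the neighbours ndhE and ndhG showed the widest spread within tmm-1 among the plastid members. ndhE had 120 and 299 in tmm-1, against 146 and 169 in Col-3 gl1 (0.26 ± 0.24, limma adjusted p = 0.822). ndhG had 68.5 and 196 in tmm-1, against 94.1 and 127 in Col-3 gl1 (0.09 ± 0.26, limma adjusted p = 0.96). In both the control arrays lay between the mutant arrays. Without tmm-1 replicate 1 limma called both, ndhE at 0.89 ± 0.20 (adjusted p = 0.0014) and ndhG at 0.79 ± 0.21 (adjusted p = 0.0094), and without tmm-1 replicate 2 they stood at -0.36 and -0.60.

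The large subunit of Rubisco, the enzyme that fixes carbon dioxide, is encoded by rbcL. Its signals were 242 and 238 in tmm-1, against 208 and 246 in Col-3 gl1, so the mutant values lay within the control range. The log2 change was 0.08 ± 0.16, with a 95% interval of -0.24 to 0.40.

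Genes for the plastid's own expression machinery had medians close to 0. The bacterial-type RNA polymerase has 4 plastid-encoded subunits, and all 4 had a member. rpoB, for the beta subunit, had 33.8 and 56.8 in tmm-1, against 61.6 and 61.9 in Col-3 gl1, with both mutant arrays lower (-0.41 ± 0.22, limma adjusted p = 0.639). Removing tmm-1 replicate 1 brought the change to -0.10, and removing tmm-1 replicate 2 brought it to -0.71. The genes after it in the cluster, rpoC1 and rpoC2, had log2 changes of 0.04 and -0.03. rpoA, for the alpha subunit, had 1515 and 964 in tmm-1, against 951 and 1332 in Col-3 gl1, with wide overlap (0.10 ± 0.18).

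Of 15 ribosomal protein members 7 had a positive and 8 a negative log2 change, with a median of -0.02 and a range of -0.23 to 0.26. rps19 had 1941 and 1667 in tmm-1, against 2401 and 1852 in Col-3 gl1, and the lines overlapped (-0.23 ± 0.15, limma adjusted p = 0.714). rps14 had 43.6 and 94.7 in tmm-1, which lay on either side of 57.4 and 48.4 in Col-3 gl1 (0.26 ± 0.24). Without tmm-1 replicate 1 limma called it, at 0.74 ± 0.23 (adjusted p = 0.036). rps4 had 3549 and 3360 in tmm-1, against 3659 and 3619 in Col-3 gl1, a small difference without overlap (-0.08 ± 0.13).

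The remaining 5 plastid members encode a maturase for splicing (matK), a subunit of the acetyl-CoA carboxylase of fatty acid synthesis (accD), a protease subunit (clpP), a cytochrome c assembly factor (ccsA) and an envelope protein (cemA). All 5 overlapped between the lines. clpP had 2701 and 2872 in tmm-1, against 2450 and 2712 in Col-3 gl1, the highest log2 change of these at 0.11 ± 0.14. accD had the lowest, -0.12 ± 0.15, from 318 and 261 in tmm-1, against 321 and 307 in Col-3 gl1. ccsA had 2669 and 2912 in tmm-1, against 2354 and 2938 in Col-3 gl1 (0.08 ± 0.14).

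**Figure D3:**
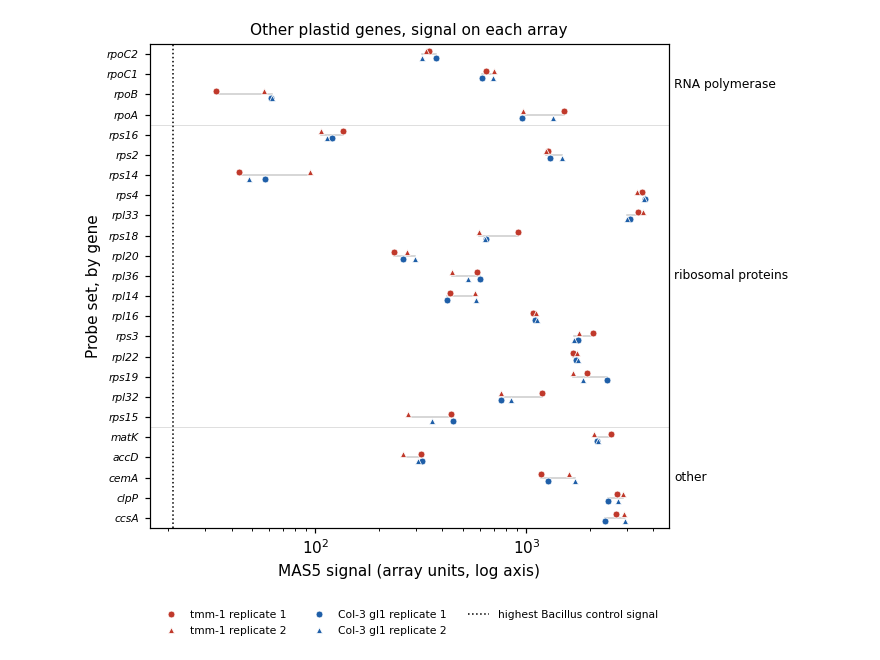
MAS5 signal of the plastid RNA polymerase, ribosomal protein and other probe sets on each array (log axis), with tmm-1 drawn above Col-3 gl1 in each row, circles for replicate 1 and triangles for replicate 2. In rpoB both tmm-1 arrays lie left of both control arrays, and in rpoA and rps14 the mutant arrays lie on different sides of a control array.

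Mitochondrial members were nearer to background. All 69 plastid members had every signal above 21.2, the highest Bacillus control signal, but 13 of 23 mitochondrial members did. A further 8 were at or under it on all 4 arrays, and 2 had signals on both sides. Of the 23, 5 were of the kind whose probes match several sequences, and large stretches of mitochondrial DNA lie copied in the nuclear genome, so signals of ccmFC, mttB, matR, nad6 and 1 nad5 probe set may include nuclear copies. Across the mitochondrial genome, 9 of 17 tested members had a positive and 8 a negative log2 change.

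Complex I, the NADH dehydrogenase at the entry of the respiratory chain, had 11 tested members and 0 called. nad9, for a subunit of its peripheral arm, had the smallest p of all organelle members. Its signals were 75.6 and 83.1 in tmm-1, against 52.7 and 42.4 in Col-3 gl1, so that both mutant arrays were higher. Its log2 change was 0.64 ± 0.20, with a 95% interval of 0.23 to 1.05 (limma unadjusted p = 0.00366, adjusted p = 0.207), and the mean signal was 1.67 times that of the control. The change ran from 0.51 to 0.77 when any array was left out. nad4, for a membrane subunit, had 328 and 197 in tmm-1, which lay on either side of 258 and 311 in Col-3 gl1 (-0.15 ± 0.18).

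Several probe sets stood for nad1 and for nad5, whose transcripts are joined from separately transcribed parts. For nad1 there were 7, of which 4 were tested, with log2 changes of 0.12, 0.07, -0.10 and -0.60. The lowest, probe set 257325_at, had 4.52 and 26.7 in tmm-1, against 16.4 and 36.4 in Col-3 gl1, with overlap and signals on both sides of the background yardstick (-0.60 ± 0.41, limma adjusted p = 0.731). Of the nad5 probe sets, 257337_at had 20.3 and 9.04 in tmm-1, against 13.5 and 1.64 in Col-3 gl1, all under the yardstick, so no difference is read from it. Probe set 257338_s_at had 39.2 and 30.2 in tmm-1, against 45.6 and 55.7 in Col-3 gl1, with no overlap (-0.44 ± 0.23, limma adjusted p = 0.613).

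Of complex IV, the terminal oxidase, 2 members were tested. cox1 had 56.6 and 70.1 in tmm-1, against 59.8 and 95.9 in Col-3 gl1 (-0.24 ± 0.21, limma adjusted p = 0.818). cox2 had 29.6 and 49.9 in tmm-1, against 38.6 and 29.6 in Col-3 gl1 (0.15 ± 0.26). Both overlapped.

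The Ccm proteins attach haem to cytochrome c. ccmFN1 had 685 and 730 in tmm-1, against 510 and 705 in Col-3 gl1, with the low value on control replicate 1 (0.23 ± 0.15, limma adjusted p = 0.721). ccmFC had 77.3 and 67.2 in tmm-1, against 80.9 and 89.1 in Col-3 gl1, both mutant arrays lower (-0.21 ± 0.19). mttB, for a protein of a membrane transport pathway, had 53.7 and 87.0 in tmm-1, against 50.1 and 72.2 in Col-3 gl1 (0.16 ± 0.22).

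The 6 untested mitochondrial members, 3 probe sets of nad1 and those of nad2, ccmFN2 and the maturase gene matR, had signals from 0.339 to 13.5, all under the yardstick. matR had at most 2.12 in tmm-1, against 9.23 and 11.7 in Col-3 gl1. nad2 had 5.77 and 13.5 in tmm-1, against 0.395 and 0.339 in Col-3 gl1. The lines did not overlap in either gene, but no fold is given for signals at this level. With no filter on low signals, nad2 had the smallest adjusted p of any organelle member, 0.503.

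**Figure D4:**
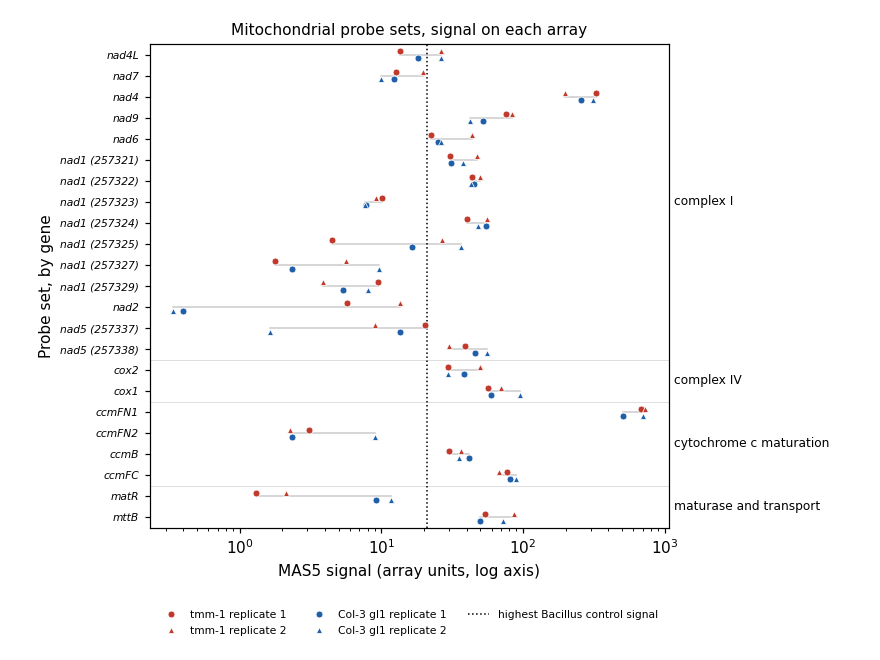
MAS5 signal of the 23 mitochondrial probe sets on each array (log axis), with tmm-1 drawn above Col-3 gl1 in each row, circles for replicate 1 and triangles for replicate 2. The dotted line is the highest Bacillus control signal of 21.2, which 8 probe sets do not pass on any array, and nad9 shows both tmm-1 arrays above both control arrays.

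The 69 tested plastid and 17 tested mitochondrial members were then set against each other within each array, as the difference of their median log2 signals. It was 4.03 and 3.82 in tmm-1, against 3.66 and 3.94 in Col-3 gl1, so the lines overlapped. The mean difference between the lines was 0.13, less than the SD of 0.18 between replicates. It depended on the filter, at 0.15 with no filter on low signals and 0.07 at a mean signal of at least 30. Plastid members held 2.55% and 2.62% of all signal in tmm-1, against 2.40% and 2.63% in Col-3 gl1. All 23 mitochondrial members, tested or not, held 0.0483% and 0.0518% in tmm-1, against 0.0419% and 0.0525% in Col-3 gl1. In both lines the replicate 2 array had the higher shares. In a bulk sample, fewer organelle-rich cells and less organelle RNA per cell cannot be told apart.

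Many plastid members differed between the replicate arrays in the same direction in both lines. Of 69 plastid members, 32 were higher on replicate 2 than on replicate 1 in both lines and 13 were lower in both. Together that is 65.2% with the same sign, where 52.4% of all tested probe sets had it. Of all 16960 tested probe sets, 4962 were higher on replicate 2 in both lines and 3922 were lower in both. Most tested probe sets are dimmer than the plastid members, and the comparison depends on signal. At a mean signal of at least 100 the same sign was found in 65.6% of 61 plastid members and 55.6% of all 6714 probe sets. At a mean signal of at least 1000 it was found in 56.7% of 30 plastid members and 62.0% of all 540 probe sets. Plastid members thus did not have the higher share of same signs there, but the directions differed. Of those 30 plastid members, 12 were higher on replicate 2 in both lines and 5 were lower in both. Among all 540 probe sets, 85 were higher in both and 250 were lower in both. The log2 differences between replicates of tmm-1 and of Col-3 gl1 correlated across the 69 members at r = 0.38, beside 0.03 across all tested probe sets. These values were 0.47 and 0.17 at a mean signal of at least 100, and 0.25 and 0.26 at a mean signal of at least 1000. Of the 17 tested mitochondrial members, 47.1% had the same sign, 7 higher on replicate 2 in both lines and 1 lower in both. Their replicate differences correlated at r = 0.46. That value includes probe sets near background with the widest differences in Col-3 gl1. These were nad1 257325_at, at 1.34 in tmm-1 and 0.81 in Col-3 gl1, and nad5 257337_at, at -0.67 and -1.01. A correlation without them was not computed, so little is read from it. Genes are not independent replicates, and neighbours share transcripts. Among the members higher on replicate 2 in both lines were ycf4, with 482 and 930 in tmm-1, against 531 and 778 in Col-3 gl1, and its neighbour cemA, with 1170 and 1586 in tmm-1, against 1270 and 1706 in Col-3 gl1. ndhK had 93.1 and 133 in tmm-1, against 74.9 and 133 in Col-3 gl1. By group, 7 of 10 NDH members were higher on replicate 2 in both lines, beside 29.3% of all tested probe sets. Of 15 ribosomal protein members, 7 were lower in both, beside 3922 of all 16960. These shares depend on signal too. At a mean signal of at least 100, 26.5% of all tested probe sets were higher in both, and 1956 of 6714 were lower. At a mean signal of at least 1000, 15.7% were higher in both, and 250 of 540 were lower. The 25S ribosomal RNA control moved with the replicate number too, at 957 and 2542 in tmm-1, against 1743 and 3025 in Col-3 gl1. An actin ratio of 3' to 5' signal, a sign of RNA quality, was 2.29 and 2.47 in tmm-1, against 2.25 and 2.39 in Col-3 gl1. An older actin control pair gave 12.5 and 8.67 in tmm-1, against 16.4 and 11.3 in Col-3 gl1, the other way round between replicates. The part of these measures in the organelle values was not tested.

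**Figure D5:**
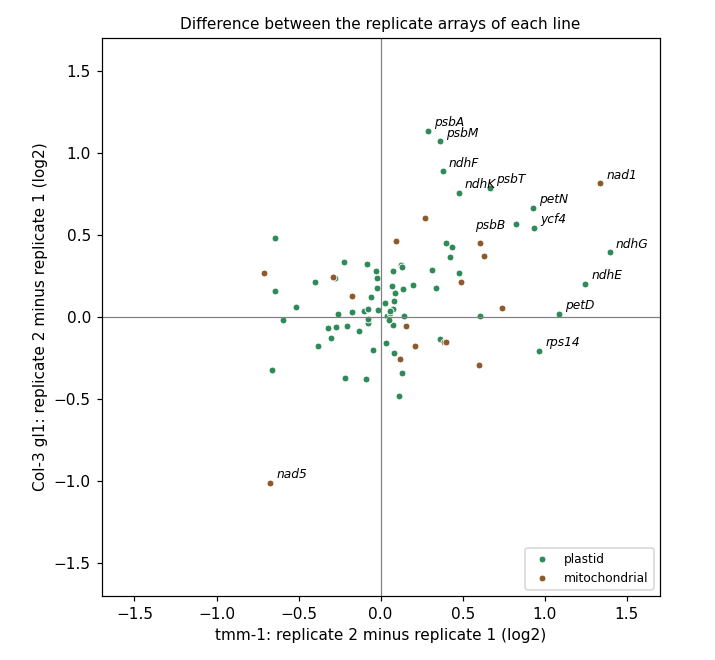
Difference between replicate 2 and replicate 1 of each tested organelle probe set (log2 of signal plus 10), in tmm-1 on the horizontal axis and in Col-3 gl1 on the vertical axis, for 69 plastid and 17 mitochondrial points. The upper right holds 32 plastid points, higher on replicate 2 in both lines, and ndhG reaches 1.39 in tmm-1 and psbA 1.13 in Col-3 gl1.

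Nuclear genes for the photosystems, the respiratory chain and organelle RNA were counted from lists by name. Of 27 listed nuclear subunits of the photosystems and their electron carriers, 4 had a named probe set and 0 were called. PSBY, for a small photosystem II subunit, had 1479 and 1200 in tmm-1, against 1750 and 1380 in Col-3 gl1, which overlapped (-0.22 ± 0.15). PSAN, for a photosystem I subunit, had 1192 and 1142 in tmm-1, against 1145 and 1050 in Col-3 gl1, and also overlapped (0.09 ± 0.14). Of 28 listed respiratory chain genes, 5 were tested and 0 called. They encode cytochrome c (CYTC-1, CYTC-2) and subunits of complex II (SDH1-1, SDH2-1, SDH2-2). None was for complex I or complex IV, the respiratory complexes with mitochondrial members. SDH2-1, for an iron-sulphur subunit of complex II, had 339 and 387 in tmm-1, against 284 and 331 in Col-3 gl1, without overlap (0.23 ± 0.15, limma adjusted p = 0.72). SDH2-2, for the same subunit, had 279 and 284 in tmm-1, against 252 and 259 in Col-3 gl1, likewise without overlap (0.13 ± 0.15). On the list of plastid RNA decay and processing, 1 of 19 genes was tested, the group II intron splicing factor CAF1, at 0.09 ± 0.19. Members of the lists of plastid and of mitochondrial transcription are not analysed here.

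Markers of green tissue and of other organs were read beside these values. Of 22 green leaf genes 3 had a named probe set, LHCB4.1, RCA and PRK. Their summed signals were 3700 and 3931 in tmm-1, against 4800 and 3983 in Col-3 gl1. Log2 changes ran from -0.28 to -0.10, and none was called. LHCB4.1 and PRK were lower in tmm-1 without overlap, as were 16.8% of all tested probe sets, and RCA overlapped. Of 16 pollen and anther genes 4 had a named probe set, with summed signals of 41.2 and 39.1 in tmm-1, against 34.3 and 29.1 in Col-3 gl1. None of the 4 was above the yardstick of 21.2 on all arrays: MGH3, AMS and SHT were under it throughout, and EMS1 ran from 9.63 to 29.9. Of 12 root genes 1 had a named probe set, EXPA7, at 3.93 and 13.4 in tmm-1, against 11.9 and 4.27 in Col-3 gl1, all under the yardstick. The part of tissue make-up in the organelle values was not tested.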

How the data were processed

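Per the labels' protocols, total RNA was biotin-labelled by the one-cycle method for hybridisation to 4 ATH1 arrays. The deposited intensity is a MAS5 signal on a linear scale, with MAS5 and GCOS listed per the submitters' processing notes. The 2% trimmed mean was 100 on every array, so values were not scaled again.

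Genes were named from the platform annotation, which gave 1 gene for 13513 probe sets and several for 503, while 8794 were not listed. Plastid genes were joined through Entrez IDs to the RefSeq table of assembly TAIR10.1, and mitochondrial genes by symbol or synonym, since their annotated IDs were older records. No position is printed.

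After adding a pseudocount of 10, log2 values of the 16960 non-control probe sets with a mean signal of at least 10 entered a two-sided moderated test (limma 3.58.1 under R 4.3.3) with a mean-dependent prior variance and Benjamini-Hochberg adjustment. Log2 changes of signal plus 10 understate changes of dim probe sets. The model has 23.6 prior degrees of freedom, so SE and p-values rest mostly on the trend over all probe sets. It was tested on simulated data. With 2 arrays per line, the smallest exact permutation p is 0.33, so none was run. The number of arrays limits precision. Alternatives changed the pseudocount, the filter, the scaling, the variance trend, the replicate block and the arrays kept.

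The members, functional groups and lists were chosen with earlier results of these data known. Named in each functional group were the tested members with the largest mean signal, the smallest p, and the highest and lowest log2 change, and in nuclear lists the 2 with the smallest p. psbA, psbB, psbT, psbE, psbF, psaA, atpE, ndhE, ndhG, ndhK, nad2, nad5, matR, ycf4, cemA, rpoC1, rpoC2, atpH, atpA and the marker genes complete the account and were chosen after their values were seen.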

Additional observations from a re-analysis of the deposited data

How the results depend on the processing

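No mitochondrial member was called by limma in any setting run, and plastid members were called only when an array was left out, 0 to 6 of them, where 0.452% to 3.88% of all tested probe sets were called. Over all probe sets the 104 calls (1495 at an unadjusted p below 0.05) became 69 after quantile normalization, 17 without a filter on low signals, 0 without a variance trend (1293 at an unadjusted p below 0.05), and 77 to 662 with an array left out. A replicate block for the pool gave 191 calls, with 0 organelle members among them. Replicate differences of the lines correlated at 0.03 over all tested probe sets, 0.17 at a mean signal of at least 100, 0.26 at a mean signal of at least 1000, 0.38 over plastid and 0.46 over mitochondrial members. The mitochondrial value includes nad1 257325_at and nad5 257337_at, which lay near background and had the widest differences in Col-3 gl1. The labels do not say that the number marks a shared day or batch. With an array left out, the lone sample is assumed to vary like the other line, and the prior degrees of freedom were 1105 without tmm-1 replicate 2 and infinite in the other cases, so those p-values rest almost wholly on the prior. The cause of these shifts was not tested.

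The median log2 change ranged from -0.04 to 0.08 for plastid and from -0.14 to 0.16 for mitochondrial members with an array left out, and the plastid minus mitochondrial difference from -0.02 to 0.27. The sign of uncalled changes turned for psaB after quantile normalization (0.0035), and for rbcL (-0.0053), petB (-0.044), petD (-0.016) and ccsA (-0.0060) after scaling to the median, which moved the median of all probe sets to -0.05. With an array left out, ranges that crossed 0 were -0.26 to 0.016 for accD, -0.075 to 0.24 for ccsA, -0.54 to 0.066 for cox1, -0.15 to 0.45 for cox2, -0.14 to 0.46 for mttB, -1.27 to 0.070 for nad1 257325_at, -0.50 to 0.21 for nad4, -0.36 to 0.89 for ndhE, -0.14 to 0.75 for ndhF, -0.60 to 0.79 for ndhG, -0.035 to 0.13 for petB, -0.48 to 0.60 for petD, -0.88 to 0.045 for petN, -0.074 to 0.027 for psaB, -0.59 to 0.54 for psbA, -0.039 to 0.79 for psbB, -0.27 to 0.11 for psbH, -0.21 to 0.86 for psbM, -0.091 to 0.70 for psbT, -0.037 to 0.20 for rbcL, -0.22 to 0.43 for rpoA and -0.23 to 0.74 for rps14. Of the settings that keep all arrays, none called a named member. Mitochondrial signals near background limit what could be seen there.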

Other observations

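Probe sets that stood for several genes were kept out of the comparison. The 8 with a plastid gene, most of them for genes present in both copies of the plastid's inverted repeat, had log2 changes (tmm-1 minus Col-3 gl1) of -0.38 to 0.10, with a median of -0.05, and limma called 0. The ribosomal protein gene rpl2 of the plastid had 4395 and 4421 in tmm-1, against 3741 and 4514 in Col-3 gl1. The 12 with a mitochondrial gene, which mostly also stand for a copy on chromosome 2, had changes of -0.93 to 0.65, with a median of -0.02, and limma called 0. The lowest, for nad1 and AT2G07701, had 10.5 and 5.51 in tmm-1, against 22.5 and 25.4 in Col-3 gl1 (-0.93 ± 0.39, limma adjusted p = 0.463). Its tmm-1 signals were under the yardstick of 21.2 and its control signals little above it, so its size is uncertain. Another nad1 probe set, shared with AT2G07702, was at 0.01 with all signals under the yardstick. The highest, for rpl5 and AT2G07725, had 28.2 and 46.7 in tmm-1, against 22.1 and 17.5 in Col-3 gl1 (0.65 ± 0.29, limma adjusted p = 0.521). Its control signals lay on both sides of the yardstick. atp9, with AT2G07671, had 261 and 200 in tmm-1, against 304 and 288 in Col-3 gl1 (-0.36 ± 0.16, limma adjusted p = 0.521).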
